A study of Mus musculus with 13 samples.

Results

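The distal nephron sets how much filtered calcium and magnesium leaves the body in the urine, and the chromatin of 10 mouse genes of this transport was followed here in snATAC-seq data of newborn and adult kidneys. The rule for membership is a list of genes and uses no measured value, although the list was drawn up with earlier results of these data known: Trpv5, Trpv6, Trpm6, Trpm7, Calb1, Pvalb, Slc8a1, Atp2b4, Casr and Cnnm2. A peak was assigned to a gene when it overlapped the gene body or the 2 kb upstream of its start, in mm10 with GENCODE M21. This gave 196 of the 300755 peaks: 64 for Slc8a1, 37 for Cnnm2, 30 for Atp2b4, 22 for Trpm6, 20 for Casr, 7 for Trpv5, 6 each for Trpm7 and Calb1, 3 for Pvalb and 1 for Trpv6. Nuclei of whole mouse kidney were profiled at postnatal day 0 (P0, 2 samples), day 21 (P21, 1 sample) and day 56 (P56, 2 samples), and P21 and P56 form the adult group. The labels name no treatment, genotype or strain for these mice and do not say whether each sample came from a separate animal, so p-values measure the spread between these samples.

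In the thick limb of the loop of Henle, calcium and magnesium pass between the cells, and the calcium-sensing receptor limits this flow. Further downstream the transport goes through the cells: an apical TRP channel lets the ion in, a calcium-binding protein carries it, and an exchanger or pump in the basolateral membrane moves it out. Magnesium entry through the Trpm6 channel is best known from the distal convoluted tubule, and calcium entry through Trpv5 from the late distal convoluted and connecting tubule.

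A peak is called open in a nucleus when it holds at least 1 fragment. The share of a peak is the percent of nuclei in which it was open. Over several samples it is the mean of the sample percents, with each sample counting alike. The level of a gene is the number of open calls in its peaks per 10000 open calls of the same nuclei, so it allows for depth but not for gene length, and levels are compared between clusters and ages and never between genes. The samples hold 3361 to 7129 nuclei with a median of 3371 to 6737 open peaks a nucleus, and shares are lower where nuclei are shallow, as in P56 replicate 1, the shallowest sample. Barcodes found in several samples number 477 of 27834. Of the 13 clusters named by the authors, 4 are called distal below: LOH for the loop of Henle, DCT and CNT for the distal convoluted and connecting tubule, and PC for principal cells. PCT and PST are the proximal tubule, IC intercalated cells, NP nephron progenitors and Endo endothelium. Over the mean of all 5 samples, the 3 markers of LOH (Slc12a1, Umod, Cldn16), of DCT (Slc12a3, Wnk4, Pvalb) and of CNT (Klk1, Calb1, Trpv5) were each highest in their own cluster, as were 2 of the 3 of PC (Aqp2, Fxyd4, Scnn1b). At P0 this did not hold for CNT and PC: the summed CNT markers were at 1.26 and 1.25 in DCT and at 0.706 and 0.869 in CNT, and the summed PC markers averaged 1.58 in CNT and 1.39 in PC. The CNT list holds the members Calb1 and Trpv5 and the DCT list Pvalb, so these checks are not independent of the members. CNT held 236 nuclei at P0 and 643 in adult samples, and DCT 108 and 842. Since the clusters were made from the chromatin of these nuclei, and Trpv5 and Pvalb served to name CNT and DCT, differences between clusters are given as a description with no test.

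For each member, 1 peak stood out most in the distal clusters, by the gap to the highest of the 9 others. The central 300 bases of 4 of these peaks are printed because the results below return to them, a choice made after their values were seen. They are read from the plus strand of GRCm38, 5′ to 3′. They lie at chr19:18773154-18773453 in an intron of Trpm6, chr6:41681847-41682146 upstream of Trpv5, chr17:81712197-81712496 in an intron of Slc8a1 and chr16:36533380-36533679 in an intron of Casr. Capitals mark matches to any of the 7 motifs named further on.
Trpm6: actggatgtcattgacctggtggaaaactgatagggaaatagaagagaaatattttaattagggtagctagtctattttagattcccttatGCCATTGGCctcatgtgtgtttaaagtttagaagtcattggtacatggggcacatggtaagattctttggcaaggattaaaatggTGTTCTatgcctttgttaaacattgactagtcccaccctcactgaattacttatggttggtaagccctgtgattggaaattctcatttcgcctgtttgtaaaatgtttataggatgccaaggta
Trpv5: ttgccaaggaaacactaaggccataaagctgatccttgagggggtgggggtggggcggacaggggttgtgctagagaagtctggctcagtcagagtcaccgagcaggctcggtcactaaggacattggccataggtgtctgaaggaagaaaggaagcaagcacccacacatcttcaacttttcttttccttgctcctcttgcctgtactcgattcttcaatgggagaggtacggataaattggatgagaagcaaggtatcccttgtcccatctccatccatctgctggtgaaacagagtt
Slc8a1: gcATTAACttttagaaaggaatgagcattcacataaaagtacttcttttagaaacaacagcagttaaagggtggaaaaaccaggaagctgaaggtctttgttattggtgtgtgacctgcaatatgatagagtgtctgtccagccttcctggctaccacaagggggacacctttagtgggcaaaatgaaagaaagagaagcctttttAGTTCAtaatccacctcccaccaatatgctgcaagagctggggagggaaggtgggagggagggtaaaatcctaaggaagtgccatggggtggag
Casr: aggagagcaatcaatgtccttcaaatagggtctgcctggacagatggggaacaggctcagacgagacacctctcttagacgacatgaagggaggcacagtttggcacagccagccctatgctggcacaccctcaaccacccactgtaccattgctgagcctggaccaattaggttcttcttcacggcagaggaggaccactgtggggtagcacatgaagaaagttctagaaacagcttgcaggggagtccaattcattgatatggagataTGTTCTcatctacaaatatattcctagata

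These 4 peaks had the following shares. The Trpm6 peak, centred 23320 bp from the gene start, was open in 37.5% of DCT nuclei over the 5 samples and in 1.62% of IC nuclei, the highest of the 9 other clusters. The Trpv5 peak at -1228 bp was open in 17.7% of CNT nuclei against 3.57% in IC. For Slc8a1 the peak at 26031 bp was open in 17.5% of CNT nuclei and in 7.39% of Immune nuclei. The Casr peak at 28611 bp was open in 19.9% of CNT nuclei and in 11% of IC nuclei. The Trpm6 peak thus had the widest gap of all member peaks chosen this way, 35.9 percentage points, and that of Trpm7 the narrowest, 0.389 points.

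The motifs were searched on both strands in the central 300 bases of peaks. GTTAAT, a core of HNF1 sites, was found in 12.8% of the 196 member peaks and in 11.8% of the 300693 peaks with sequence. The ERR letters AAGGTCA were in 3.57% of member peaks and 7.38% of all. For AP-2 (GCCNNNGGC) the shares were 5.61% and 8.98%. GATA letters (AGATAA) were in 13.8% and 15.3%, and FOX letters (TGTTTAC) in 2.04% and 5.09%. AGAACA, recognised by steroid receptors, was in 24.0% of member peaks and 25.3% of all, and AGTTCA, a vitamin D receptor motif, in 19.9% and 19.2%. Among the printed sequences, that of Trpm6 held 1 match each to the AP-2 and steroid receptor letters, that of Slc8a1 1 each to HNF1 and the vitamin D receptor, that of Casr 1 to the steroid receptor letters, and that of Trpv5 held none.

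**Figure D1:**
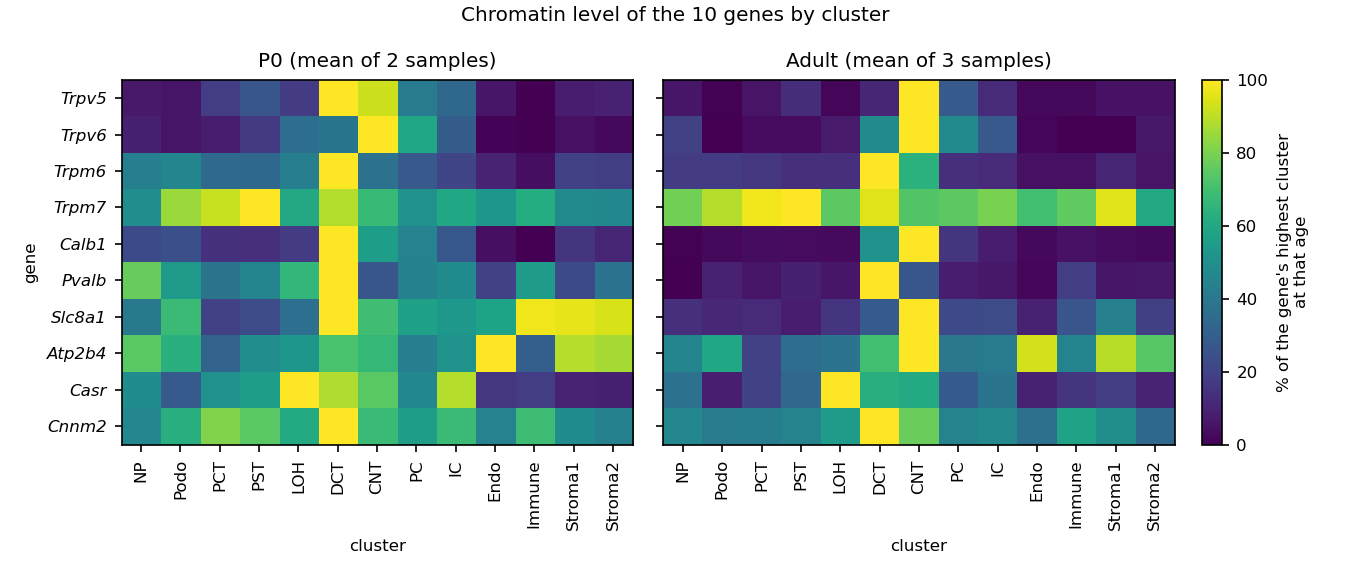
Level of each of the 10 genes (rows) in the 13 clusters (columns), as a percent of the gene's own highest cluster mean at that age, at P0 (left, mean of 2 samples) and in adult kidney (right, mean of 3 samples). DCT is the highest cluster of 6 genes at P0, and CNT that of 5 genes in adult samples. Of the 19422 genes that pass the floor given below, 1845 were highest in DCT at P0 and 1082 in CNT in adult samples.

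At P0 the highest level of 8 of the 10 genes was in a distal cluster, whereas 17.1% of the 19422 genes with a mean of at least 10 CPM (open calls scaled to a common total) were highest there. In adult samples 9 of the 10 were, against 22.5% of genes. Trpv6 and Pvalb lie below that floor, at 3.12 and 4.54 CPM, and without them the counts were 6 of 8 and 7 of 8. Between the ages the highest cluster went from DCT to CNT for Trpv5, Calb1 and Slc8a1 and from Endo to CNT for Atp2b4. The P0 lead of DCT was narrow for Trpv5 (0.394 against 0.364 in CNT) and for Slc8a1 (2.36 against 2.31 in Immune, with overlapping samples). For Calb1 it was wider (0.660 against 0.368 in CNT). The highest cluster was DCT at both ages for Trpm6, Pvalb and Cnnm2, CNT at both ages for Trpv6, LOH for Casr and PST for Trpm7. At P0, DCT overlapped IC for Pvalb and PCT and PST for Cnnm2. Peaks gave a like picture: of the 75 member peaks open in at least 5% of nuclei of some cluster at P0, as a mean over samples, 22 were highest in DCT, where 8.34% of all such peaks were. In adult samples 31 of 67 were highest in CNT, against 5.07% of all such peaks.

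Calcium entry is described first. Trpv5 (chr6:41652173-41680769, minus strand) encodes the apical calcium channel of the distal nephron. No peak covers its annotated start, and 3 of its 7 peaks lie upstream, at -320 bp, -1228 bp and -2108 bp, while the nearest intronic peak is at 936 bp. The peak at -2108 bp also falls in the window of another coding gene. In CNT its level was 0.376 and 0.353 in the P0 samples, 1.31 at P21, and 0.865 and 1.16 at P56, so every adult sample lay above both P0 samples. In DCT the order was the opposite, with 0.395 and 0.393 at P0 against 0.108, 0.121 and 0.126. In adult kidney PC followed CNT with a mean of 0.317, and every CNT sample lay above every PC sample. Across the other 9 clusters the adult mean did not go above 0.145, the level in PST.

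Trpv6 (chr6:41620624-41636405, minus strand), the close relative of Trpv5 that is better known from the intestine, has 1 peak, over its start. That peak was open in 11.1% and 12.9% of CNT nuclei at P0 and in 4.82%, 4.08% and 9.02% in adult samples. CNT was its cluster with the highest level, at 0.109, 0.121 and 0.145 in adult samples, which overlapped DCT (0.0270, 0.121 and 0.0305) and PC. As a share of nuclei adult CNT did not overlap adult DCT, where the peak was open in 0.99%, 3.58% and 1.84%. These shares rest on 4, 12 and 24 open nuclei in CNT and on 1, 11 and 8 in DCT. Unlike levels, they do not allow for depth: median open peaks a nucleus were 3936, 3240.5 and 6190.5 in CNT and 3270, 2549 and 5611.5 in DCT.

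The carriers of calcium within the cell come next. Calb1 (chr4:15881264-15908064, plus strand) encodes calbindin-D28k. Its level in CNT was 0.296 and 0.441 at P0 and 2.09, 1.36 and 1.41 in adult samples. In DCT it was 0.632 and 0.688 at P0 and 1.19, 0.408 and 0.893 in adult samples, where the ages overlapped. A peak 27279 bp from its start, at the 3′ end of the gene, was open in 1.48% and 2.97% of CNT nuclei at P0 and in 36.1%, 15.3% and 28.2% in adult samples. The start peak of Calb1 was open in 12.6% and 21.8% of CNT nuclei at P0 and in 22.9%, 8.50% and 28.6% in adult samples, so the ages overlapped there.

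Pvalb (chr15:78191114-78206400, minus strand) encodes parvalbumin, a calcium buffer typical of the early distal convoluted tubule. Its level in DCT was 0.105 and 0.0737 at P0 and 0.243, 0.375 and 0.279 in adult samples, resting on 4 and 3 open calls at P0 and on 9, 34 and 73 in adult samples. The adult mean of 0.299 in DCT was 3.72 times that of CNT. As a mean over the samples of an age, none of its 3 peaks reached 5% of the nuclei of any cluster, although in P56 replicate 2 the peaks at 1985 bp and 6261 bp were open in 8.06% and 5.99% of DCT nuclei.

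Calcium leaves the cell through Slc8a1 (chr17:81373105-81738377, minus strand), the sodium-calcium exchanger NCX1, and through plasma membrane pumps such as Atp2b4. Slc8a1 is also known from muscle and other excitable cells, and at P0 its levels in DCT (2.69 and 2.04) overlapped those of Immune, Stroma1 and Stroma2. In CNT it was 1.65 and 1.64 at P0 and 6.96, 6.31 and 4.00 in adult samples. The adult CNT mean of 5.76 was 2.29 times that of the next cluster, Stroma1. Atp2b4 (chr1:133699457-133801041, minus strand) was highest in Endo at P0, with 1.12 and 1.05. In adult samples its CNT levels of 0.952, 0.905 and 0.919 overlapped those of Endo and Stroma1.

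**Figure D2:**
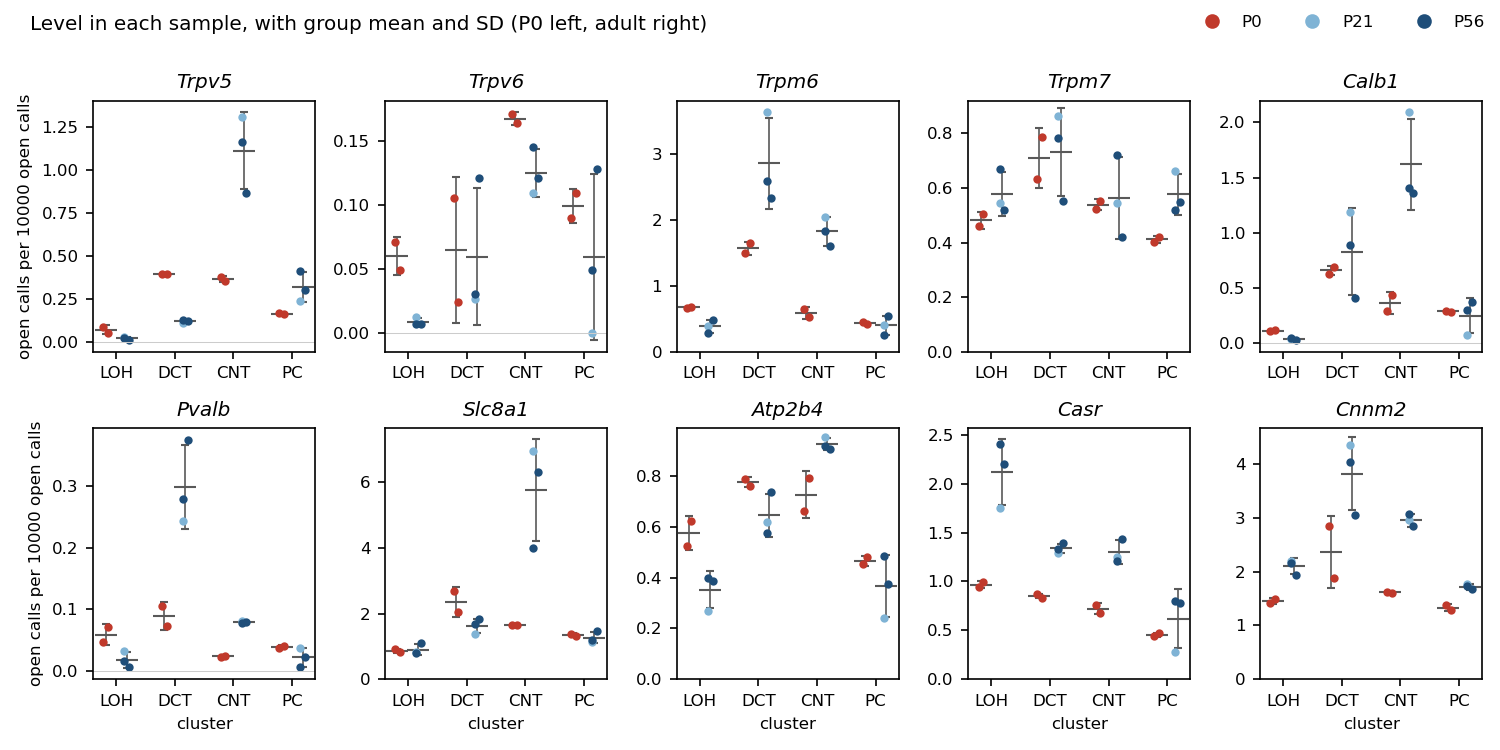
Level of each gene, in open calls in its peaks per 10000 open calls, in the LOH, DCT, CNT and PC nuclei of each sample (points), with the group mean and SD (bars, 2 P0 samples at left and 3 adult samples at right). In CNT the adult samples of Slc8a1 lie at 4.00 to 6.96, above both P0 samples, while Trpv5 in DCT lies at 0.108 to 0.126 in adult samples, below both P0 samples.

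Magnesium entry goes through Trpm6 (chr19:18749983-18892511, plus strand), a channel fused to a kinase. Its level in DCT was 1.5 and 1.65 at P0 and 3.64, 2.34 and 2.59 in adult samples. In CNT it was 0.649 and 0.529 at P0 and 2.04, 1.60 and 1.84 in adult samples, and the adult DCT samples all lay above the adult CNT samples. The intronic peak printed above was open in 39.2% and 28.1% of DCT nuclei at P0 and in 44.6%, 21.8% and 53.9% in adult samples, so the ages overlapped. In CNT the same peak was open in 0.741% and 4.95% at P0 and in 28.9%, 18.0% and 36.8% in adult samples, without overlap. Trpm6 has a pair of start peaks. The one at 8966 bp was highest in NP (12.2%), with 9.0% in DCT, and the one at 43 bp was open in 9.80% and 12.3% of DCT nuclei at P0 and in 10.9%, 8.14% and 18.2% in adult samples.

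Trpm7 (chr2:126791565-126876230, minus strand), the channel-kinase closest to Trpm6 and present in most cells, had a level of the same order in all clusters. At P0 its means ran from 0.372 in Stroma2 to 0.80 in PST, where PCT and DCT overlapped PST. Its adult means ran from 0.464 in Stroma2 to 0.770 in PST, and 7 clusters overlapped PST. Its start peak was open in 29.7% of DCT nuclei and 32.8% of PST nuclei over the 5 samples.

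Cnnm2 (chr19:46761596-46880192, plus strand) encodes a basolateral membrane protein needed for magnesium balance. Its start peak was open in 60.2% of DCT nuclei and in 51.7% of PST nuclei, PST being the highest of the 9 clusters outside the distal ones. Its level in DCT was 2.85 and 1.89 at P0 and 4.37, 3.06 and 4.05 in adult samples. In CNT it was 1.63 and 1.61 at P0 and 2.96, 2.85 and 3.08 in adult samples, and the adult DCT and CNT samples overlapped.

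Casr (chr16:36493696-36562141, minus strand), the calcium-sensing receptor, was highest in LOH at both ages. Its LOH level was 0.942 and 0.996 at P0 and 1.75, 2.20 and 2.41 in adult samples, and no other adult cluster overlapped it. DCT and CNT followed with adult means of 1.34 and 1.30, which overlapped each other.

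Whether these genes changed between P0 and adult kidney was tested within 6 clusters with the quasi-likelihood test of edgeR, adjusted by Benjamini-Hochberg over all genes or all peaks tested in that cluster. In CNT, 6 of the 9 members tested rose and none fell: Calb1 by 2.02 ± 0.22 (log2, SE, adjusted p = 2.0e-05), Slc8a1 by 1.73 ± 0.21 (3.3e-05), Trpm6 by 1.55 ± 0.18 (2.3e-05), Trpv5 by 1.51 ± 0.21 (0.00011), Cnnm2 by 0.82 ± 0.14 (0.00054) and Casr by 0.80 ± 0.17 (0.0030). Of all genes tested in CNT, 9.74% rose and 15.3% fell. The median log2 change was 0.82 over the members tested and 0.04 over all genes. Atp2b4 (0.30), Trpm7 (0.04) and Trpv6 (-0.40) did not pass. None of the 6 calls was lost without TMM, with the size factors of DESeq2 or in DESeq2 itself, and of the 6 only Casr missed the threshold when a sample was left out, P0 replicate 2 (0.73, adjusted p = 0.054). In nuclei thinned to 1000 open peaks, 4 of the 6 passed, and Trpv5 (0.99, adjusted p = 0.29) and Casr (0.61, 0.44) did not.

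The summed level of the DCT markers Slc12a3, Wnk4 and Pvalb in CNT nuclei also went up with age, from 0.945 and 1.25 at P0 to 4.43, 3.26 and 4.94 in adult samples. The summed LOH markers in CNT went from 0.376 and 0.453 to 0.761, 0.995 and 0.804. The part of either list in the rise of Trpm6, Casr and the other genes in CNT was not tested. In DCT itself the DCT markers were at 4.43 and 4.49 at P0 and at 10.2, 9.36 and 7.77 in adult samples. In CNT itself the summed CNT markers, which include Calb1 and Trpv5, averaged 0.788 at P0 and 3.45 in adult samples.

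Among the peaks, 17 of the 40 member peaks tested in CNT rose and none fell, where 10.4% of all peaks rose and 12.2% fell. The count was 10 without P0 replicate 1 and 11 without P0 replicate 2. By gene, 4 of 6 tested rose for Calb1, 4 of 13 for Slc8a1, 3 of 3 for Trpv5, 2 of 5 for Trpm6, 2 of 4 for Casr and 2 of 5 for Cnnm2. Among called peaks open in more than 3 P0 nuclei, the largest changes were those of the Calb1 peak at 27279 bp (3.79 ± 0.48, adjusted p = 1.7e-05) and the Trpm6 peak at 23320 bp (3.70 ± 0.42, 9.0e-06). The former was open in 2 and 3 P0 nuclei and the latter in 1 and 5. Both passed the filter on low counts only through the adult samples, where they are high. The Trpm6 peak at 29756 bp rose by 2.97 ± 0.60 (0.00089), and the Slc8a1 peak at 66619 bp by 2.94 ± 0.48 (0.00014), from 2.22% and 2.97% of nuclei to 20.5%, 9.18% and 21.8%.

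Low counts at P0 limit most of these. Most of the called peaks were open in fewer than 10 P0 nuclei over both samples and passed the filter on low counts only through the adult samples, so they could be tested only because they were high there. The Slc8a1 peak at 27678 bp was open in 0 of the 236 P0 nuclei of CNT and in 40 adult nuclei, which is at least 7.39-fold higher per open call when 3 counts over the P0 group are taken as the floor. The Slc8a1 peak at 199764 bp was open in 3 P0 nuclei, with a ratio of 6.10 (95% counting interval 1.91 to 31.1), and the Calb1 peak at 1330 bp in 2, with a ratio of 11.6 (3.03 to 99.3). The 3 upstream peaks of Trpv5 rose by 2.36 ± 0.57 at -2108 bp (adjusted p = 0.0040), 1.12 ± 0.35 at -320 bp (0.024) and 0.91 ± 0.33 at -1228 bp (0.048). Over 11 alternatives each, these calls missed the threshold in 1, 4 and 7, in that order. As a share of nuclei the peak at -1228 bp overlapped between the ages, with 11.9% and 13.9% at P0 and 24.1%, 8.50% and 30.1% in adult samples. Intervals and floors cover counting error only.

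**Figure D3:**
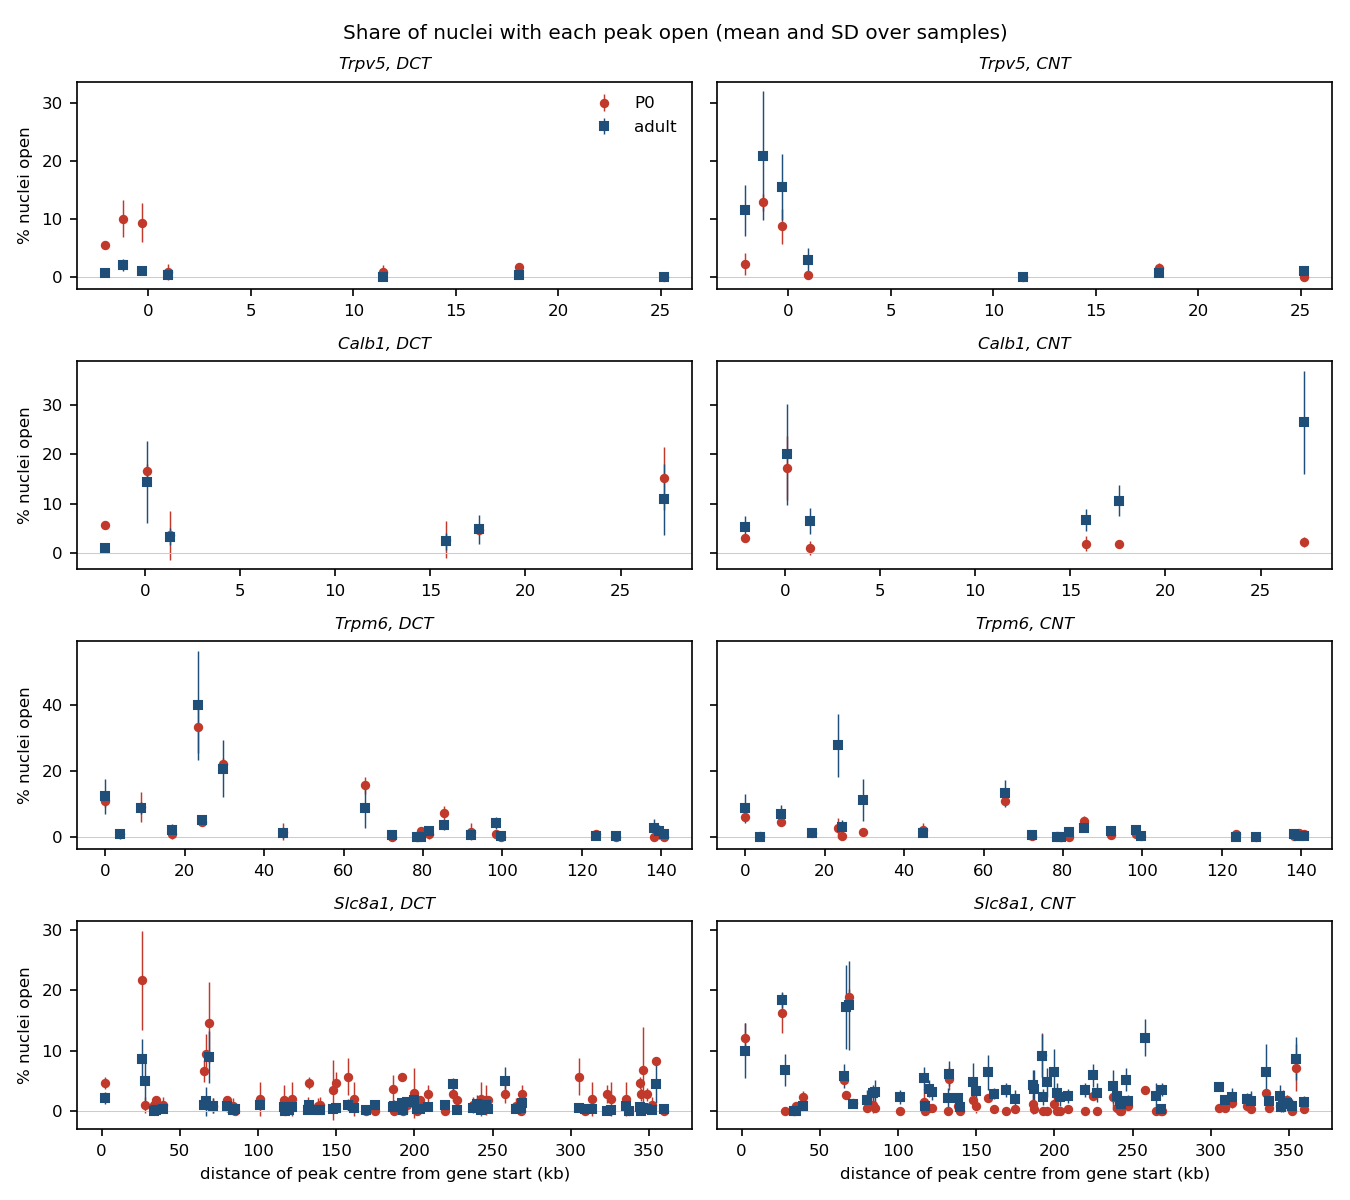
Percent of nuclei with each peak of Trpv5, Calb1, Trpm6 and Slc8a1 open, against the distance of the peak centre from the gene start in kb, in DCT (left) and CNT (right), as the mean and SD over 2 P0 samples (circles) and 3 adult samples (squares). The Trpm6 peak at 23320 bp is open in DCT at both ages and in CNT mainly in adult samples, 2.85% at P0 and 27.9% in adult samples.

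In DCT, with 51 and 57 nuclei at P0, 2 of 9 members passed: Trpm6 rose by 0.73 ± 0.20 (adjusted p = 0.043) and Trpv5 fell by 1.78 on the log2 scale (SE 0.41, 0.020). Trpv5 rests there on 15 and 16 open calls at P0 and on 4, 11 and 33 in adult samples. It passed the filter on low counts only through P0, where it is high, and none of its peaks could be tested in DCT. In the same DCT nuclei the summed PC markers went from 1.29 and 1.18 at P0 to 0.270, 0.463 and 0.427 in adult samples, and the summed CNT markers, which include Trpv5, were higher in DCT than in CNT at P0. Their part in the fall of Trpv5 was not tested. Of all genes tested in DCT, 1.38% rose and 4.17% fell. Pvalb (1.66 ± 0.51, 0.070), Slc8a1 (-0.60 ± 0.19, 0.082), Casr (0.57 ± 0.19, 0.10) and Cnnm2 (0.59 ± 0.20, 0.10) did not pass. Without P0 replicate 1, Trpm6 had 0.74 (adjusted p = 0.28) and Trpv5 -1.71 (0.24), and without P0 replicate 2 they had 0.82 (0.24) and -1.76 (0.21), so neither passed, with 5 and 4 members at an unadjusted p under 0.05. Trpm6 also missed the threshold without P56 replicate 2 (0.058), and without P56 replicate 1 the number of members called was 4. With equal numbers of nuclei per sample Trpv5 was at -1.07 (0.21). Of 13 member peaks tested in DCT, 1 rose and none fell (2.60% and 1.13% of all peaks). It was a peak of Cnnm2. No member peak was called by edgeR without P0 replicate 2, P21 replicate 1 or P56 replicate 2, with 2, 3 and 3 at an unadjusted p under 0.05, nor by DESeq2 on all samples, with 3. Without P56 replicate 1 the number called was 3.

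In LOH, 8 of the 10 members changed, 2 of them upward. Casr rose by 1.21 ± 0.16 (adjusted p = 0.00013) and Cnnm2 by 0.61 ± 0.12 (0.0016). Trpv6 fell by 2.77 (SE 0.51, 0.0011), Trpv5 by 1.83 (SE 0.49, 0.0091), Pvalb by 1.80 (SE 0.49, 0.010) and Calb1 by 1.48 (SE 0.34, 0.0039) on the log2 scale. Trpm6 fell by 0.74 (SE 0.21, 0.011) and Atp2b4 by 0.60 (SE 0.19, 0.019). Slc8a1 (0.13) and Trpm7 (0.34) did not pass. In this cluster 22.8% of all genes rose and 29.3% fell. Trpm6 was at 0.670 and 0.677 at P0 and at 0.384, 0.486 and 0.290 in adult samples. Atp2b4 rests on 223 and 313 open calls at P0 and 42, 110 and 175 in adult samples. Trpv5 rests on far fewer: it had 0.0873 and 0.0516 at P0 and 0.0256, 0.00704 and 0.0228 in adult samples, from 37, 26, 4, 2 and 10 open calls. Trpv6 rests on 30, 25, 2, 2 and 3 open calls in the same order. It passed the filter on low counts only through P0, where it is high. Counts were low for Pvalb as well: its start peak at 1985 bp was open in 14, 26, 2, 2 and 4 LOH nuclei. Without P0 replicate 1, only Trpv6, Casr and Cnnm2 passed, and without P0 replicate 2 Calb1, Pvalb and Atp2b4 did not. In nuclei thinned to 1000 open peaks only 6 of the 10 members could be tested, and 2 passed. Cnnm2 (0.36, adjusted p = 0.13) and Atp2b4 (-0.67, 0.096) missed the threshold there, and Pvalb did in DESeq2 (-1.71, 0.068). The summed DCT markers in LOH went from 1.05 and 1.08 to 2.62, 2.55 and 3.35, while the summed markers of NP (Six2, Cited1, Uncx) went from 0.753 and 0.675 to 0.205, 0.215 and 0.119 and those of PC from 0.439 and 0.322 to 0.147, 0.162 and 0.18. As means of the P0 and of the adult samples, the Endo markers went from 0.939 to 0.384, those of stroma from 0.771 to 0.319 and those of Podo from 0.748 to 0.125. The CNT markers rose from 0.259 to 0.638, and the LOH markers of the cluster itself from 1.29 to 5.33. The part of these lists in the changes was not tested.

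Of the 54 member peaks tested in LOH, 18 rose and 12 fell, against 24.4% and 29.9% of all peaks. Without TMM scaling the median of all peaks was -0.41 instead of -0.11, the share of rising peaks among all calls was 32.3% instead of 45.0%, and 17 member peaks rose and 14 fell. For Casr 8 of 11 peaks rose and 1 fell. Its peak at 18821 bp was open in 10.9% and 12.1% of LOH nuclei at P0 and in 23.6%, 15.5% and 33.8% in adult samples, a rise of 2.17 ± 0.25 (adjusted p = 1.1e-07). The Casr peak at 31198 bp was open in 2 P0 nuclei and 20 adult nuclei, with a ratio of 10.6 (2.57 to 93.2). It passed the filter on low counts only through the adult samples, where it is high. The Casr peak at 1305 bp rose by 2.03 ± 0.44 (0.00036). The start peak of Calb1 went from 6.30% and 7.98% to 0.508%, 0.288% and 1.55% (log2 change -2.0, SE 0.42, adjusted p = 0.00026). It passed the filter on low counts only through P0, where it is high.

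Slc8a1 as a whole showed no call in LOH, with 5 peaks up and 3 down. Its peak at 309204 bp was open in 4 P0 nuclei and 41 adult nuclei, with a ratio of 10.8 (95% counting interval 3.92 to 41.6), and passed the filter only through the adult samples. The peak at 224513 bp rose by 3.04 ± 0.42 (adjusted p = 1.6e-06), from 13 to 90 nuclei. The peak at 26031 bp printed above fell by 2.27 on the log2 scale (SE 0.53, 0.00088). Of these, the peak at 224513 bp passed the filter only through the adult samples and that at 26031 bp only through P0, where each is high. For Trpm6 4 peaks fell and 1 rose, the one at 23320 bp (1.72 ± 0.34, 0.00015), which stayed at 4.06%, 3.36% and 4.86% of adult LOH nuclei.

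In PC, Trpv5 rose by 1.01 ± 0.24 (adjusted p = 0.0057), from 0.164 and 0.161 to 0.239, 0.303 and 0.408, and none of the other 8 members tested passed with edgeR, while DESeq2 called no member, with 1 at an unadjusted p under 0.05. Of all genes, 12.4% rose and 17.2% fell. The summed PC markers in PC itself averaged 1.39 at P0 and 2.65 in adult samples. In PC nuclei the summed LOH markers went from 0.306 and 0.214 to 0.552, 0.525 and 0.654 and the stroma markers from 0.668 and 0.615 to 0.276, 0.385 and 0.324, and their part was not tested. Without P0 replicate 1, P0 replicate 2 or P56 replicate 2 the change was 1.00, 0.94 and 0.74, each with an adjusted p of 0.11, and no member passed. Without P21 replicate 1, 2 members passed, and 4 without P56 replicate 1. Of 23 member peaks tested, 4 rose and 2 fell (12.7% and 16.8% of all peaks). The Trpv5 peak at -1228 bp rose by 1.59 ± 0.37 (0.0024) and the Casr peak at 28611 bp by 1.40 ± 0.32 (0.0020). This Trpv5 peak passed the filter on low counts only through the adult samples, where it is high. As a share of nuclei the ages overlapped for both peaks. For Trpv5, P56 replicate 1 (4.14%) lay between the P0 samples, while P21 replicate 1 (7.77%) and P56 replicate 2 (20.3%) lay above both. The adjusted p of this peak ranged up to 0.38 over the alternatives. The Casr peak had 7.87% and 7.71% of nuclei at P0 and 4.85%, 12.0% and 23.6% in adult samples. Its adjusted p ranged up to 0.41 over the alternatives. The Slc8a1 peak at 26031 bp fell by 1.15 (SE 0.42, 0.039). It passed the filter on low counts only through P0, where it is high. Over the alternatives its log2 change ran from -1.32 to -0.78, and the call missed the threshold in 7 of 10. Only 1 peak was called without either P0 replicate, 3 without P56 replicate 2 and 10 without P21 replicate 1.

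In PCT, which serves as the proximal comparison, Slc8a1 rose by 0.73 ± 0.15 (adjusted p = 0.0064), Atp2b4 fell by 0.84 (SE 0.20, 0.013) and Trpv6 fell by 1.75 (SE 0.56, 0.040). Trpv6 rests on 6 and 4 open calls at P0 and on 3, 5 and 5 in adult samples. It passed the filter on low counts only through P0, where it is high. In PCT nuclei the summed markers of Endo went from 0.455 and 0.502 to 0.272, 0.302 and 0.254, those of stroma from a mean of 0.537 to 0.286 and those of Podo from 0.743 to 0.277, and their part was not tested. The summed markers of PCT itself (Slc34a1, Slc5a2, Slc5a12) averaged 2.85 at P0 and 5.06 in adult samples. The backgrounds were 12.8% and 15.6% of genes. Without either P0 replicate none of the 3 passed, with 2 and 3 members at an unadjusted p under 0.05. Of 58 member peaks 5 rose and 12 fell (16.3% and 17.6% of all peaks), and 3 were called without P0 replicate 1, 5 without P0 replicate 2 and 10 without P56 replicate 2. Without TMM scaling the share of rising peaks among all calls was 35.0% instead of 48.0%. The Slc8a1 peak at 224513 bp rose by 2.91 ± 0.28 (3.2e-05), from 2.56% and 1.80% to 13.9%, 8.58% and 16.0% of nuclei. The Cnnm2 peak at 59605 bp fell by 3.58 (SE 0.57, 0.00053).

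In IC, none of the 6 members and none of the 4 member peaks tested passed with edgeR. At an unadjusted p under 0.05 there were 1 gene and 0 peaks, and DESeq2 gave 0 calls and 0 at an unadjusted p for both. In IC 0.265% of all genes rose and 0.734% fell, and 0.108% of peaks rose and 0% fell. The cluster held 40 and 56 nuclei at P0.

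**Figure D4:**
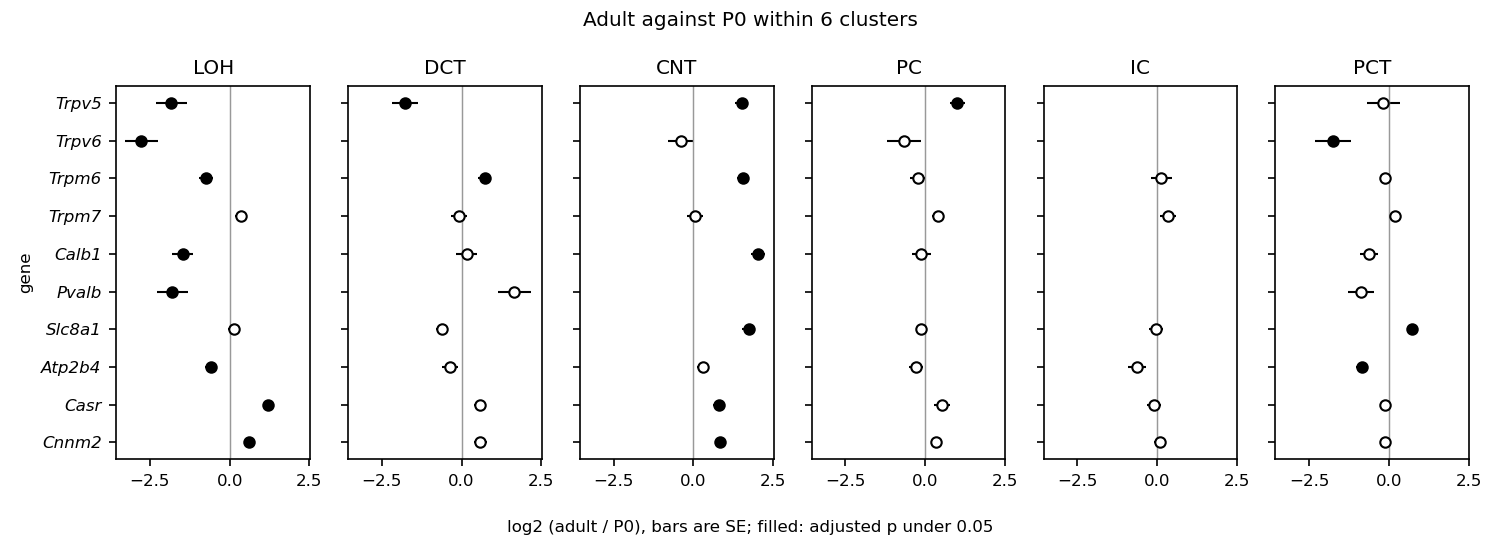
Change of each gene from P0 to adult kidney as log2 (adult / P0) with its SE (bars), in 6 clusters, where filled points passed an adjusted p of 0.05 and genes that could not be tested are left out. In CNT the 6 filled points lie between 0.80 and 2.02, and in LOH 6 of the 8 filled points lie below 0.

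The difference in the stage effect between DCT and each other distal cluster was tested in a model with the sample as a block. Between CNT and DCT, Trpv5 differed by 3.25 ± 0.43 (log2, SE, adjusted p = 1.4e-05), Slc8a1 by 2.09 ± 0.21 (3.9e-08) and Calb1 by 1.71 ± 0.40 (0.021), each toward CNT, where 1.04% of all genes differed. Trpm6 (0.80 ± 0.26, 0.14) did not pass. Between LOH and DCT, Pvalb differed by -3.65 ± 0.65 (0.00025), Calb1 by -1.83 ± 0.44 (0.0073) and Trpm6 by -1.66 ± 0.20 (4.1e-07), against 6.10% of genes. Between PC and DCT, Trpv5 differed by 2.72 ± 0.43 (5.2e-05), Pvalb by -2.95 ± 0.87 (0.046) and Trpm6 by -1.07 ± 0.27 (0.014), against 3.31% of genes. Pvalb could not be tested within PC alone. Within DCT it passed the filter on low counts only through the adult samples, where it is high. Without P0 replicate 2 the LOH contrast kept Trpm6 alone, as Calb1 (0.11) and Pvalb (0.084) did not pass. In the PC contrast Trpv5 alone passed without P0 replicate 1, P0 replicate 2 or P56 replicate 2. Calb1 in the CNT contrast did not pass without P0 replicate 1 (1.52, 0.51) or P0 replicate 2 (2.00, 0.18). With no sample block, Calb1 in the CNT (adjusted p = 0.25) and LOH (0.14) contrasts and Pvalb (0.12) and Trpm6 (0.18) in the PC contrast did not pass, and DESeq2 did not call Calb1 in CNT (0.38) or LOH (0.20) or Trpm6 in PC (0.080). All 3 contrasts share the DCT samples.

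A further 25 genes of calcium and magnesium handling were taken as a list. In CNT 11 of the 23 tested rose and 2 fell, against 9.74% and 15.3% of all genes, and DESeq2 called 6 and 1. Klk1, a serine protease of the connecting tubule and also a marker of CNT above, had 3 and 6 open calls at P0 and 28, 55 and 139 in adult samples and could be tested only through the latter (3.66 ± 0.37, adjusted p = 1.0e-05). Slc12a3, the thiazide-sensitive cotransporter, rose by 2.67 ± 0.22 (2.0e-06), and Fxyd2, a subunit of the sodium pump, by 2.35 ± 0.20 (2.0e-06). Kl, which encodes klotho, rose by 1.69 ± 0.20 (3.3e-05), and Vdr, the vitamin D receptor, by 1.23 ± 0.16 (4.4e-05). The tight junction genes Cldn14 and Cldn19 fell by 1.32 and 1.96 on the log2 scale. In LOH 16 of 25 rose and 3 fell (22.8% and 29.3% of all genes), with Egf, the hormone that stimulates Trpm6, at 2.32 ± 0.18 (1.6e-05) and Cldn16, a claudin of paracellular magnesium transport, at 1.29 ± 0.21 (0.00051). In DCT 5 of 19 rose and 1 fell (1.38% and 4.17% of all genes), in PC 6 of 24 and 4 (12.4% and 17.2%), in PCT 6 of 25 and 4 (12.8% and 15.6%), and in IC none of 19 passed with edgeR, with 4 at an unadjusted p under 0.05 (DESeq2 called none, with 1). The medians of the list were 0.50 in CNT, 0.53 in LOH, 0.36 in DCT, 0.16 in PC, 0.13 in PCT and 0.08 in IC, where those of all genes lay between -0.04 and 0.04. Klk1 belongs to a family of near-identical genes, so its peaks may hold reads of its relatives.

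Over the 65 sums of 13 clusters and 5 samples, the genes whose log2 level was most like that of a member were found, as a description. The points share libraries, depth and the cell types themselves. For Trpv5 the most alike gene was Scnn1b, a subunit of the epithelial sodium channel (r = 0.82), which was also the most alike for Trpv6 (0.80). Trpm6 was most like Vps25 (0.84) and then Wnk4 (0.82), a kinase that regulates Slc12a3. For Casr the most alike gene was Gcgr, the glucagon receptor (0.89), for Cnnm2 Cpt1a (0.87), for Trpm7 Acadm (0.78), for Calb1 Sall3 (0.77), for Atp2b4 Fat4 (0.72), for Slc8a1 the lincRNA 3930402G23Rik (0.68) with Gata3 at the same r, and for Pvalb Eif2ak1 (0.68).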

How the data were processed

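The snATAC-seq data cover 5 samples. The authors aligned reads to mm10 with Cell Ranger ATAC 1.1.0, filtered barcodes, clustered nuclei with SnapATAC after Harmony correction, and called peaks with MACS2 on the pooled nuclei of each cell type. The deposited matrix holds counts that the authors binarized, without scaling for depth, and 89197 entries stored as 0 were read as closed. Depth ran from 16980853 to 43794155 open calls per sample, and sums near the minimum carry a large counting error. The 664 nuclei of 2 further clusters, the scRNA-seq files and the embeddings were not used here. No search for doublets was made.

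Open calls were summed per sample and cluster and tested in R 4.3.3 with edgeR 4.0.16: TMM, filterByExpr (min.count 10, min.total.count 15), the quasi-likelihood test and Benjamini-Hochberg at 0.05 over all peaks or genes tested. The SE was derived from the F statistic. DESeq2 1.42.0 was an alternative, and Python 3.11.15 served for sums and levels. Only the edgeR fit of the CNT genes was tried on simulated data, and no result given here rests on it. The members and all lists were chosen with earlier results of these data known. Named were all members, their start peak with the largest share, the peak with the widest gap between distal and other clusters, up to 3 called peaks a gene and cluster by absolute change, and the most alike genes with a mean of at least 10 CPM. Other peaks were named after their values were seen. Alternatives were the size factors of DESeq2, no TMM, no filter, thinning to 1000 open peaks, equal nuclei, gene bodies alone, peaks of 1 coding gene, a replicate block and each sample left out, where a lone P0 sample is assumed to vary like the others. The sequence of 1 peak and the results on it are not reported here.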

Additional observations from a re-analysis of the deposited data

Results flagged for a closer look

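In 9 cases the change of a member gene from P0 to adult kidney differed between DCT and another distal cluster by a test of the difference itself (edgeR with the sample as a block, adjusted over 23327 genes). Toward CNT and away from DCT these were Trpv5 (3.25), Slc8a1 (2.09) and Calb1 (1.71), as differences of log2 changes. In PC against DCT they were Trpv5 (2.72), Pvalb (-2.95) and Trpm6 (-1.07), and in LOH against DCT Pvalb (-3.65), Calb1 (-1.83) and Trpm6 (-1.66). Pvalb could not be tested within PC alone, and within DCT it passed the filter only through the adult samples. For Trpv5 the changes themselves had opposite signs, 1.51 in CNT and -1.78 in DCT, in 3 of 3 adult samples against both P0 samples. Within DCT, Trpv5 passed the filter on low counts only through P0, where it is high. The summed PC markers in DCT nuclei went from a mean of 1.23 at P0 to 0.387 in adult samples, and the summed CNT markers at P0 averaged 1.26 in DCT and 0.788 in CNT. Their part in these differences was not tested. Without each sample in turn, Trpv5 in CNT stayed between 3.15 and 3.33 and Slc8a1 between 1.91 and 2.44, past the threshold each time, as did Trpv5 in PC (2.42 to 2.80) and Trpm6 in LOH (-1.92 to -1.42). The 5 other cases each missed it without at least 1 sample. With no sample block 4 of the 9 were lost as well: Calb1 in CNT and LOH, and Pvalb and Trpm6 in PC.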

How the results depend on the processing

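No called member gene, called member peak or difference of stage effects changed direction under any alternative that was run. Of 266 recomputed gene calls 35 lost the threshold, of 745 peak calls 149 did, and of 80 differences 21 did. In CNT the member genes called stayed at 5 to 6 when samples were left out.

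For member peaks, leaving out each sample gave 20 to 29 calls in LOH (30 with all samples), 0 to 3 in DCT (1), 10 to 21 in CNT (17), 1 to 10 in PC (6) and 3 to 17 in PCT (17). For member genes it gave 3 to 9 in LOH (8), 0 to 4 in DCT (2), 0 to 4 in PC (1) and 0 to 2 in PCT (3). The differences from DCT numbered 1 to 3 in LOH, 2 to 4 in CNT and 1 to 3 in PC (3 each). Thinning to 1000 open peaks left 3 peaks in LOH, 0 in DCT (2 tested), 0 in CNT (1 tested), 0 in PC (2 tested) and 4 in PCT, and 2 genes in LOH, 0 in DCT (5 tested) and 0 in PC; few features could be tested there. At an unadjusted p under 0.05 the 0 counts of thinned peaks were 0 each, and those of genes 0 in DCT and 1 in PC. Equal nuclei gave 0 peaks in DCT, 7 in CNT, 1 in PC and 10 in PCT, and 1 gene in DCT and 0 in PC. DESeq2 gave 0 peaks in DCT, 9 in CNT and 9 in PCT, 1 gene in DCT, 0 genes in PC and 1 difference in PC, as did the fit with no sample block. Without a filter 2 peaks in DCT, 28 in CNT, 0 in PC and 5 genes in DCT were called. Gene bodies alone gave 1 gene in DCT and 0 in PC. Of the pathway list, DESeq2 called 6 genes up in CNT (11 with edgeR). The cause was not tested except where fewer features could be tested.

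Without TMM the share of calls higher in adult samples went from 43.8% to 30.6% of genes in LOH and from 45.0% to 28.7% in PCT, with medians of -0.21 and -0.14. Member genes called there were 2 up and 6 down in LOH and 1 up and 2 down in PCT, as with TMM.

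Replicate numbers do not pair the samples: their deviations correlated by 0.034 to 0.099, and the ages come from different mice. With the replicate block 8 genes were called in LOH, 2 in DCT, 6 in CNT, 1 in PC, 0 in IC and 3 in PCT. All 20 called genes and 67 of the 71 called peaks passed in it.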
